A study of Mus musculus with 3 samples.

Results

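The comparison set 2 LSD1 chromatin immunoprecipitation libraries of mouse cells side by side. The first was MEF, mouse embryonic fibroblasts at day 0, with no vector and no Shield1. The second was MidK, fibroblasts given the reprogramming vector SeVdp(fKOSMaB) and 30 nM Shield1, at day 20. Both libraries were precipitated with the same anti-LSD1 antibody, and the files cover chromosome X alone. The series holds 3 libraries, and the third, LowK, carried the vector to day 20 without Shield1. The vector, Shield1, 20 days of culture and any change of cell identity all separate MidK from MEF and cannot be told apart here. With 1 library a side there is no replicate check, so differences are given by size, with intervals that cover counting error only.

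Every listed position on chromosome X belonged to the comparison: 411944 single-base sites in MEF and 119257 in MidK, or 511460 different positions of the 652139 listed in the 3 libraries. Each site carries a count of reads with the B6 base (the base of the C57BL/6 reference strain) and of reads with a variant base. MEF held 883058 such reads, 125151 of them B6, and MidK held 203350, 38349 of them B6. Depth was 2.14 reads per site in MEF and 1.71 in MidK, and single-read sites made up 47.4% and 69.7% of the lists. A listed site always holds a variant read, so a site with a single read is a variant site by construction. The libraries shared 19741 sites, 4.79% of the MEF and 16.6% of the MidK list. At promoters with a RefSeq sequence, the B6 base equalled the GRCm38.p6 base at 1027 of 1027 MEF and 330 of 330 MidK sites.

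LSD1 (KDM1A) is a demethylase that removes mono- and dimethyl marks from lysine 4 of histone H3, works within corepressor complexes such as CoREST, and has known roles in shutting down enhancers and in embryonic stem cells. KLF4 is one of the reprogramming factors that return fibroblasts to pluripotency. Shield1 is a ligand that protects proteins fused to a destabilising domain from breakdown, and the names LowK and MidK refer to the KLF4 level that it sets in this vector system. In female cells the long noncoding RNA Xist coats and silences one X chromosome, and that chromosome is reactivated on the way to pluripotency. No source used here names the strain behind the variant base or the sex of the cells. Markers of fibroblasts or stem cells cannot check the labels, since the reads measure LSD1 on chromatin and not expression.

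The clearest pattern lay at gene starts, where promoters rich in the dinucleotide CG took a larger share of reads in MidK than in MEF and other promoters did not. The 6 promoters below are examples of the 2 classes. The first 4 are the CpG-rich promoters with the most MidK reads outside multi-copy gene families, and the last 2 are the other promoters with the most MEF reads. Each run covers 250 bases before the start site to 50 after it, 5′ to 3′, from RefSeq on GRCm38.p6, with every CG in capitals. CG was searched as those letters, which read the same on both strands, and 94.0% of the 816 promoters of the same length held at least 1.
Ddx3x: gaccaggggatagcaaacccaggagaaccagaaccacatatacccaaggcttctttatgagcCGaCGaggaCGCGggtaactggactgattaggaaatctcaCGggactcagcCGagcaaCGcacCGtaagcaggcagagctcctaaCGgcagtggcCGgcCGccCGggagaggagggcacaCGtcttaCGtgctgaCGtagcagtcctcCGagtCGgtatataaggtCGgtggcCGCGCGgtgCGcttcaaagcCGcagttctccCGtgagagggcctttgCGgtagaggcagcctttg
Yipf6: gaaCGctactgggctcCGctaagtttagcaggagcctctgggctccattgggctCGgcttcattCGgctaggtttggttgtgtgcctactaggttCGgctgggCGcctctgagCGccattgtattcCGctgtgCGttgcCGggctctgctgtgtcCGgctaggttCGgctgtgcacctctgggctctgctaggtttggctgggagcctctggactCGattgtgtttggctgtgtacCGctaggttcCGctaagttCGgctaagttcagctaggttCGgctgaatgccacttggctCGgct
Hprt: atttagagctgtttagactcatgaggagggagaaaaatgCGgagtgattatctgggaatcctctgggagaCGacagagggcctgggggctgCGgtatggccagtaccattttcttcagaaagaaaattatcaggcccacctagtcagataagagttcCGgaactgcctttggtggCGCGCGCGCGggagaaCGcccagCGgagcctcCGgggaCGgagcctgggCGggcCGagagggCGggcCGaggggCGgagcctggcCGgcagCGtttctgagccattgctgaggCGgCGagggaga
Bclaf3: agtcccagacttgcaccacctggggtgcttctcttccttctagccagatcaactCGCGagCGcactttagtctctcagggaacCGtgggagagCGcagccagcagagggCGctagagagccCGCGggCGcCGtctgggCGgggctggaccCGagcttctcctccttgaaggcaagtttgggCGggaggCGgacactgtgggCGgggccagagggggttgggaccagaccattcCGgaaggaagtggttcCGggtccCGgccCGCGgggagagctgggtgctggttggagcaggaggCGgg
Gm35586: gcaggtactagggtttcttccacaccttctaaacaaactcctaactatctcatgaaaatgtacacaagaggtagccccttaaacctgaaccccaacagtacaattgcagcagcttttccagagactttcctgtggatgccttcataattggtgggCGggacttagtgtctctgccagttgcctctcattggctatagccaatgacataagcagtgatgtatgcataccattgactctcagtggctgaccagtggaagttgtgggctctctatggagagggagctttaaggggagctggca
Gja6: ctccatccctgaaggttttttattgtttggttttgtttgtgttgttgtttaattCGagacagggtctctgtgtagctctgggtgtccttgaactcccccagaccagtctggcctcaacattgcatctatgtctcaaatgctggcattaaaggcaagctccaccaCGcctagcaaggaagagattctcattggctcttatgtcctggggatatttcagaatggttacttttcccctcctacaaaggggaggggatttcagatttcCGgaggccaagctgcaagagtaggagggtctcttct
Ddx3x lies at chrX:13280772-13281071 on the plus strand, Yipf6 at chrX:98937531-98937830 (plus), Hprt at chrX:52987828-52988127 (plus) and Bclaf3 at chrX:159532418-159532717 (plus). The other 2 are on the minus strand, Gm35586 at chrX:55895803-55896102 and Gja6 at chrX:160907003-160907302. The 4 CpG-rich sequences hold 25, 18, 22 and 21 CG, against 1 and 3 in the other 2. Within 1 kb of the start, Ddx3x, an RNA helicase gene that escapes X inactivation, had 59 reads in MEF and 47 in MidK. Scaled to the library totals that was 3.59-fold higher in MidK (95% exact interval 2.39 to 5.36). Yipf6, whose product is a membrane protein of the Golgi, had 64 and 43 reads (3.03-fold, 2.01 to 4.53). Hprt, the purine salvage enzyme, had 53 and 42 (3.57-fold, 2.33 to 5.46), and Bclaf3 had 20 and 35 (7.89-fold, 4.43 to 14.4). Gm35586 went the other way, with 86 reads in MEF and 3 in MidK (ratio 0.157, 0.0318 to 0.475). Gja6, a gap junction gene, had 79 and 5 (ratio 0.285, 0.0902 to 0.694). The 4 were chosen by MidK reads and the other 2 by MEF reads, which favours opposite directions. Their ratios are therefore descriptions and cannot show a contrast between the classes.

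Start sites were split by sequence alone into 227 CpG-rich promoters (GC of at least 50% and a CpG observed/expected of at least 0.6 over the 300 bases) and 589 others, with a median of 22 and 5 CG. Such CpG-rich starts are typical of housekeeping and developmental genes, which are usually free of DNA methylation there. This split, and every value at start sites, was added after the data had been seen. Sites with more than 20 reads were left out. In the first 1 kb downstream of the start, CpG-rich promoters held 2052 MEF and 1103 MidK reads, 23.4 and 56.7 per 10000 of each library, a 2.42-fold higher share in MidK (2.25 to 2.61). The other promoters held 3641 and 697 reads there, a ratio of 0.863 (0.795 to 0.936). In the first 1 kb upstream the ratios were 1.27 (1.16 to 1.39) and 0.633 (0.575 to 0.695). Summed over each class, the CpG-rich starts thus stood higher in MidK and the others lower. For the others, 0.863 lay within the range of their own flanks from 1 to 20 kb away (0.761 to 0.997), and 0.633 lay below it. With each site counted once, their first 1 kb downstream gave 0.909 (0.811 to 1.02).

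The rise was narrow. In the 200 bp just after the start, CpG-rich promoters held 498 MEF and 386 MidK reads, a 3.49-fold higher share in MidK (3.05 to 4.00). The 200 bp before it gave 613 and 324 (2.38-fold, 2.08 to 2.73), and the next 200 bp upstream gave 515 and 115, a ratio of 1.01 (0.815 to 1.23). From 1 to 10 kb downstream the same genes held 14320 and 2273 reads, a ratio of 0.716 (0.684 to 0.748). The ratio was also below 1 from 1 to 10 kb upstream (0.830). From 10 to 20 kb away it was 0.805 downstream and 0.862 upstream. The lower share was thus not limited to the stretch after the peak. Reads were also stacked more deeply at those starts, with 3.68 reads per site in MidK in the first 200 bp and 2.86 in MEF, although MidK was the shallower library as a whole. Within MidK, the first 1 kb of CpG-rich promoters held 4.08 times the reads per kb found 10 to 20 kb away, against 1.40 times within MEF. For the other promoters these values were 1.04 and 1.13.

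**Figure D1:**
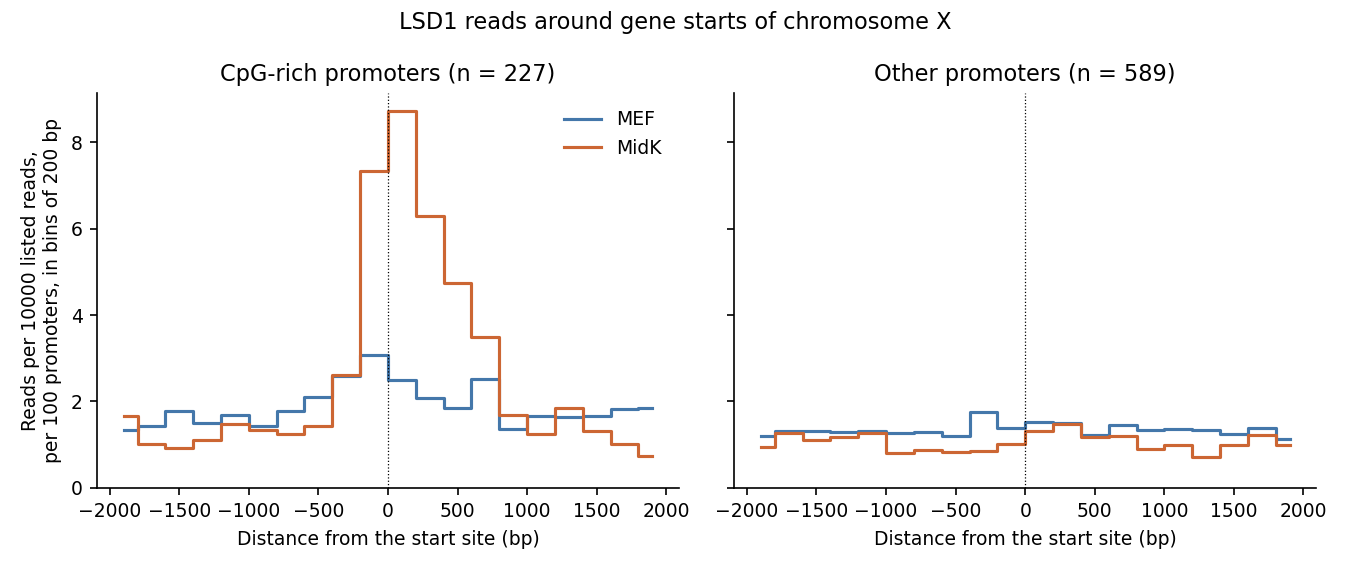
Reads per 10000 listed reads and per 100 promoters (y axis) in 200 bp bins by distance from the start site in bp (x axis), for 227 CpG-rich promoters (left) and 589 others (right), MEF in blue and MidK in orange, 1 library each. MidK rises to its peak in the first 200 bp of the CpG-rich promoters, where its read share was 3.49-fold that of MEF, and at the other promoters MidK shows no such peak.

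The peak at CpG-rich starts was not limited to cells with Shield1. LowK held 77.9 reads per 10000 in the first 1 kb of the CpG-rich promoters, 4.03 times its level 10 to 20 kb away, and 86.8 per 10000 at the other promoters, 2.21 times that level. The values for MidK were 56.7 and 35.8 per 10000. At the other promoters, LowK was therefore above MEF (41.5 per 10000) and MidK below it. Both day 20 libraries were set against the same MEF library.

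GC content moved with the class, and with no input library its part in the ratio was not tested. Among promoters with a GC of 50% to 60%, the 91 CpG-rich ones held 723 MEF and 295 MidK reads in their first 1 kb (1.84-fold, 1.60 to 2.11) and the 198 others 1243 and 292 (1.06, 0.929 to 1.20). At 60% GC and above, the 136 CpG-rich promoters gave 2.74 (2.51 to 2.99) and the 52 others 1.22 (1.01 to 1.47). Promoters of the other class with a GC under 40% gave 0.484 (0.337 to 0.677). The ratio rose with GC in both classes and was larger in the CpG-rich class in each band that held both. These bands are wide, and whether the classes had the same GC within a band was not tested. GC was measured over the promoter sequence at the start, and not over the whole 1 kb in which reads were counted.

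Single promoters were called where the share within 1 kb of the start differed at least 2-fold with Poisson intervals that did not overlap, given at least 10 reads in 1 library. Of 484 promoters tested, 64 were higher in MidK (13.2%) and 29 lower (5.99%). The CpG-rich class had 44 higher and 5 lower of 183, or 24% and 2.73%, and the other class 20 higher and 24 lower of 301, or 6.64% and 7.97%. Promoters that overlap share reads and are each counted. For example, 8030474K03Rik and Gm4779 were both called higher with 14 and 12 reads, and Fam3a and Ikbkg both lower with 39 and 0. The highest ratio belonged to Ezhip, an inhibitor of the Polycomb repressive complex PRC2, with 2 MEF and 21 MidK reads (47.3-fold, 11.6 to 416) in a promoter of the other class. Usp27x, a deubiquitinase gene, followed with 6 and 24 reads (18.0-fold, 7.18 to 53.9). Fmr1, which encodes the RNA-binding protein FMRP, had 46 and 34 (3.33-fold, 2.07 to 5.31). Among those lower in MidK, the promoter of Eif2s3x, a translation initiation factor gene that escapes X inactivation, had 31 MEF reads and 0 in MidK. That of Maoa, the monoamine oxidase gene, had 36 and 0.

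Within 1 kb of the start, the ratio was 1.15 (1.10 to 1.20) over all 816 promoters. It was 1.83 (1.73 to 1.93) in the CpG-rich class and 0.749 (0.704 to 0.796) in the other. Grouped by gene list, promoters of X-linked chromatin regulators held 318 MEF and 149 MidK reads within 1 kb of 20 starts, a ratio of 2.11 (1.73 to 2.57). This interval overlaps that of the CpG-rich class. Beside 13.2% higher over all tested promoters and 24% in the CpG-rich class, 5 of 14 tested chromatin regulators were higher and 0 lower: Bcor and Bcorl1, corepressors tied to Polycomb, Jade3, a subunit of a histone acetyltransferase complex, Taf7l, a TFIID subunit, and Msl3, a subunit of the MSL acetyltransferase complex. Pluripotency and germline genes gave 134 and 48 reads (1.61, 1.14 to 2.26), with Zfx, a transcription factor gene of stem cell self-renewal, as the 1 called promoter of 6. Escape genes gave 249 and 81 (1.47, 1.13 to 1.89) over 9 starts. Ddx3x alone held 59 and 47 of these reads and was called higher, while Eif2s3x, with 31 and 0, was called lower. The ratio of the escape list thus rests largely on 1 promoter. Genes subject to inactivation gave 383 and 76 (0.895, 0.690 to 1.15), although Hprt and Pdha1, a pyruvate dehydrogenase subunit, were called higher. Fibroblast and matrix genes gave 304 and 56 (0.831, 0.613 to 1.11), immune genes 108 and 22 (0.918, 0.553 to 1.46) and neural genes 97 and 41 (1.91, 1.29 to 2.77). Promoters of the X-inactivation centre gave 113 and 16 over 4 starts (0.638, 0.353 to 1.08). CpG-rich promoters made up 12 of the 20 chromatin regulators and 5 of the 17 fibroblast genes, so the lists differ in promoter class as well. They made up 13 of 18 genes subject to inactivation, 5 of 9 escape, 3 of 9 neural and 2 of 12 pluripotency and germline genes. For immune genes it was 0 of 10, and for the X-inactivation centre 1 of 4. The list ratios did not follow these shares in order.

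On the scale of the whole chromosome the 2 read profiles were close. In windows of 1 Mb the share of reads in MidK over that in MEF was divided by the median window, which stood at 1.003 on library totals. A window was called at 1.5-fold or more, with at least 50 reads in 1 library and Poisson intervals that did not overlap. Of 164 windows tested, 14 were higher in MidK (8.54%) and 5 lower (3.05%). In windows of 100 kb, called at 2-fold with at least 30 reads, 61 of 1520 were higher (4.01%) and 64 lower (4.21%). Neighbouring windows lay on the same side of the median in 65% of 160 pairs at 1 Mb and in 58.8% of 1492 pairs at 100 kb.

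**Figure D2:**
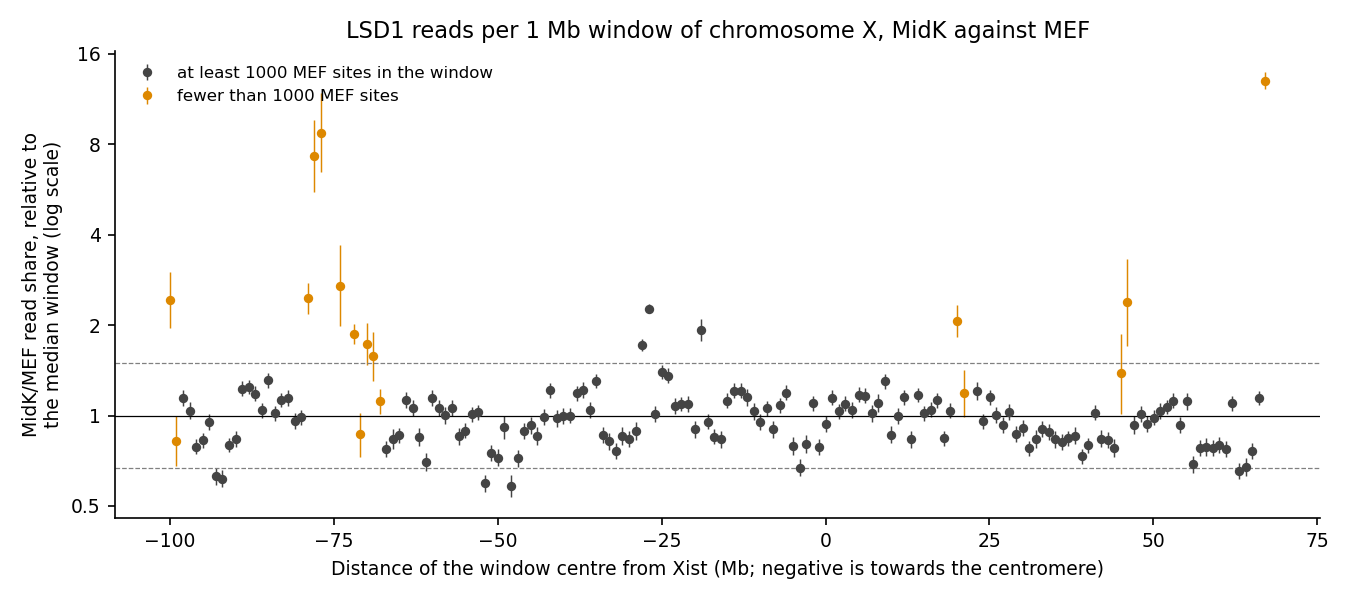
Ratio of the MidK to the MEF share of reads in each 1 Mb window, relative to the median window (log y axis), by distance of the window centre from Xist in Mb (x axis), with 95% exact intervals of counting error as bars and dashed lines at 1.5-fold. Orange marks windows with fewer than 1000 MEF sites, which hold 11 of the 14 windows called higher, and most other windows lie between the dashed lines.

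The 5 windows called lower in MidK each held at least 5 protein-coding genes. Such windows were common: of 140 with at least 2000 MEF sites, 39 held 5 to 9 and 30 held 10 or more. chrX:55000001-56000000 held 4659 MEF and 629 MidK reads (ratio 0.585, 0.537 to 0.636) and chrX:51000001-52000000 held 7168 and 985 (0.595, 0.556 to 0.636). The second carries Rap2c, a small GTPase gene, Mbnl3, a splicing regulator, and Hs6st2, a heparan sulfate sulfotransferase. Adjacent windows chrX:10000001-11000000 and chrX:11000001-12000000 had 6949 and 1007 (0.628, 0.587 to 0.671) and 7207 and 1026 reads (0.617, 0.577 to 0.658). The first of them holds Srpx, Rpgr, Otc and Tspan7, and the second a cluster of 10 histone variant genes, H2al1a to H2al1j. chrX:166000001-167000000, with Gpm6b, a neural membrane protein gene, Ofd1, a centriole protein gene, and Egfl6, held 7549 and 1138 (0.653, 0.613 to 0.695). In all 5 windows no MidK site had more than 20 reads. With each site counted once, none of the 5 was called, and their ratios were 0.858, 0.675, 0.702, 0.751 and 0.721 in the order given.

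Windows called higher lay mainly where MEF listed few sites. The largest ratio, in chrX:170000001-171000000, came from 1207 MEF and 3627 MidK reads (13.02-fold, 12.2 to 13.9), at 96 and 160 sites. Sites with more than 20 reads gave 83.6% of those MidK reads, and without such sites the ratio was 5.05. Its 1 protein-coding gene is Asmt, the last enzyme of melatonin synthesis. chrX:26000001-27000000 held 68 and 137 reads (8.73-fold, 6.48 to 11.9) at 38 and 62 sites, with Slx, a multi-copy gene of spermatids. The window before it, chrX:25000001-26000000, held 86 and 145 (7.30-fold, 5.56 to 9.65). Lower ratios were found in chrX:29000001-30000000, with 112 and 70 reads (2.71-fold, 1.98 to 3.68; 6.44 and no longer called without sites of more than 20 reads, and not called with sites counted once), and chrX:24000001-25000000, with 783 and 444 (2.46-fold, 2.18 to 2.76). In repeated regions of this kind a read can come from another copy, so these ratios are uncertain.

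Among the 100 kb windows with the highest ratios, chrX:25700001-25800000 held 0 MEF and 42 MidK reads, 63.4-fold higher against a floor of 3 counts, with an exact lower limit of 49.3. chrX:3800001-3900000 held 6 and 31 (23.4-fold, 9.62 to 68.6) at 2 and 4 sites. chrX:35500001-35600000, without a gene, held 17 and 47 (12.5-fold, 7.06 to 23.3). At the end of the chromosome, chrX:170800001-170900000 held 353 and 1620 (20.8-fold, 18.5 to 23.4) and chrX:170000001-170100000 held 211 and 599 (12.9-fold, 10.97 to 15.1), with 86.0% and 100% of MidK reads at sites of more than 20 reads. Without such sites the first fell to 8.67-fold and the second was called lower, with 0 MidK reads left. The lowest ratios were in chrX:4200001-4300000, with Btbd35f20 (53 and 2 reads, 0.171), chrX:135400001-135500000 (49 and 2, 0.185) and chrX:37700001-37800000, with part of Rhox5 (45 and 2, 0.201). These rest on 10 and 2, 12 and 1, and 23 and 2 sites. More reads lay behind chrX:146900001-147000000, in Htr2c, with 554 and 31 (0.253, 0.170 to 0.364), and chrX:55700001-55800000, with 213 and 12 (0.255, 0.130 to 0.455). With each site counted once, only chrX:170800001-170900000 and chrX:146900001-147000000 of the windows named here were still called.

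The dependence on site number ran through the chromosome. The 15 tested windows with fewer than 500 MEF sites had a median ratio of 2.07 and held 11 of the 14 calls higher in MidK. The 36 windows with 3000 sites or more had a median of 0.796 and held 4 of the 5 lower. Restricted after the data were seen to windows with at least 1000 MEF sites, 3 windows stayed higher. Of these, chrX:75000001-76000000 (6203 and 2453 reads, 1.71-fold) and chrX:76000001-77000000 (9764 and 5103, 2.26-fold) fell to 1.24 and 1.49 without sites of more than 20 reads. The third, chrX:84000001-85000000 within Dmd, the dystrophin gene, had 1823 and 809 (1.92-fold, 1.77 to 2.09) and 1.87 without them. Over all 164 windows Spearman's rho between the ratio and MEF sites was -0.54, a description, since the MEF reads are also in the ratio.

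Windows with more genes had lower ratios as well. Among the 140 windows with at least 2000 MEF sites, the median ratio was 1.06 over 11 windows with 0 protein-coding genes, 1.02 with 1 to 4 genes, 0.908 with 5 to 9 and 0.847 over 30 windows with 10 or more. Of all reads, 34.0% lay in gene bodies in MEF and 28.6% in MidK, and 33.6% and 28.4% of sites. MidK thus gave a smaller share of its reads to genes as a whole and a larger one to their CpG-rich starts.

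**Figure D3:**
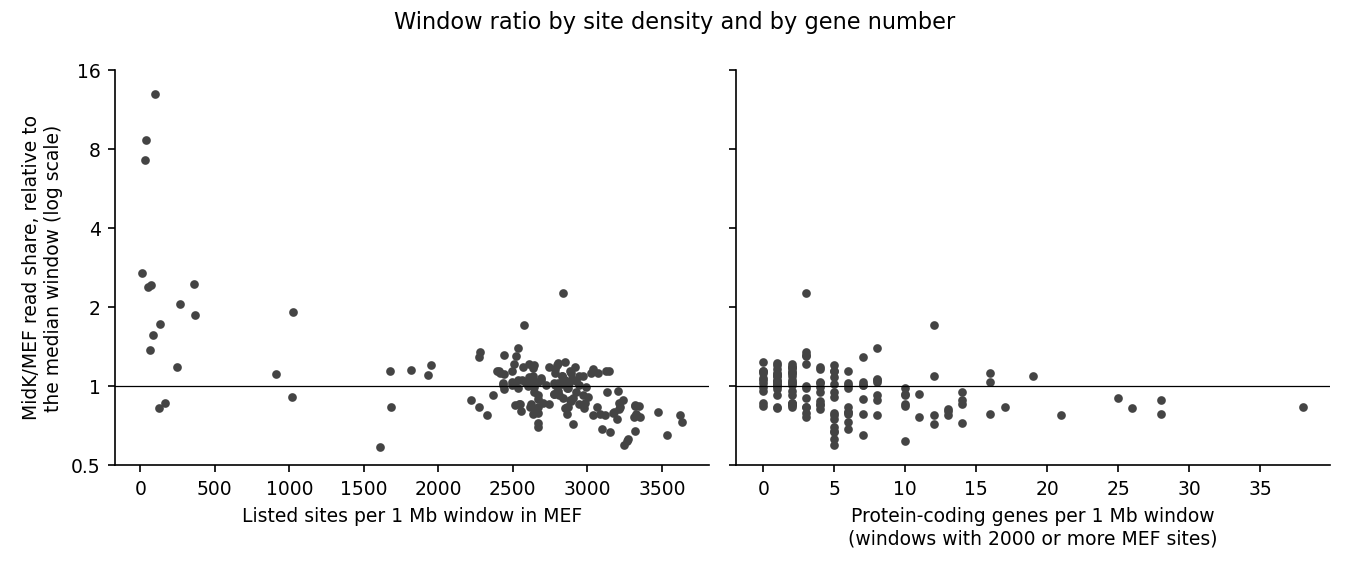
Ratio of each 1 Mb window relative to the median window (log y axis) against the number of listed MEF sites in it (left, all 164 tested windows) and against its number of protein-coding genes (right, 140 windows with at least 2000 MEF sites). Windows with fewer than 500 sites have a median ratio of 2.07, and windows with 10 or more genes one of 0.847.

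Runs of at least 3 adjacent 100 kb windows past 1.5-fold in 1 direction were joined into domains. By size alone, 195 of the 1520 windows (12.8%) passed 1.5-fold higher and 236 (15.5%) lower. They formed 9 domains higher in MidK, 3000 kb in all, with ratios of 1.61 to 13.8, and 14 domains lower, 5100 kb in all, with ratios of 0.434 to 0.629. With each site counted once there were 2 and 5 such domains. The domains lower in MidK had a median of 328 MEF sites per 100 kb and those higher 191, against 278.5 over all tested windows. Genes were found in 13 of the 14 lower domains and in 4 of the 9 higher ones, counting protein-coding genes. Most lower domains spanned 400 or 500 kb and most higher ones 300 kb. The share for other stretches of like length was not computed, so these counts are not a contrast in gene content.

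The longest domain lower in MidK, chrX:13300001-13800000, held 3703 MEF and 477 MidK reads (ratio 0.583, 0.529 to 0.642). It covers Nyx, a proteoglycan gene of the retina, part of Cask, a scaffold protein gene of synapses and other cell contacts, and the receptor genes Gpr34 and Gpr82. The lowest ratio was in chrX:142700001-143100000, with 2922 and 280 reads (0.434, 0.382 to 0.491), over Tmem164, Ammecr1 and Rtl9. chrX:51300001-51700000, with Hs6st2, held 2871 and 309 (0.487, 0.432 to 0.548). A domain in Gpc3, a heparan sulfate proteoglycan gene, chrX:52300001-52600000, held 2193 and 234 (0.483, 0.420 to 0.553). Hprt and Plac1, a placental gene, lie in chrX:53000001-53400000, with 3055 and 367 (0.544, 0.487 to 0.606). The start of Hprt was higher in MidK, while the domain that begins within the gene was lower.

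chrX:146900001-147300000 lies in Htr2c, a serotonin receptor gene, with 2912 and 328 reads (0.510, 0.454 to 0.572). chrX:161900001-162300000 lies in Nhs, the Nance-Horan syndrome gene, with 2590 and 292 (0.510, 0.451 to 0.576). chrX:99200001-99600000 holds Pja1, a ubiquitin ligase gene, with 3172 and 351 (0.501, 0.447 to 0.560). The H2al1 cluster in chrX:11100001-11500000 had 2771 and 289 (0.472, 0.417 to 0.533).

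Of the domains higher in MidK, the longest was chrX:84000001-84600000 in Dmd, with 711 MEF and 428 MidK reads (2.73-fold, 2.41 to 3.08) at 420 and 267 sites. chrX:75000001-75300000 holds Gab3, an adaptor gene, Dkc1, Mpp1, Smim9 and F8, the coagulation factor VIII gene, and had 1224 and 444 reads (1.64-fold, 1.47 to 1.83). chrX:165700001-166000000, without a gene, had 1583 and 648 (1.85-fold, 1.69 to 2.03). The domain around Asmt, chrX:170600001-170900000, had 996 and 3028 reads (13.8-fold, 12.8 to 14.8), with 39 MidK sites of more than 20 reads. chrX:24100001-24400000 had 201 and 200 (4.51-fold, 3.69 to 5.51).

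The share of each allele did not follow the domains evenly. In the 14 domains lower in MidK, B6 reads went from 5412 to 357, a ratio of 0.215 on library totals, and variant reads from 30372 to 3726, a ratio of 0.564. In the 9 domains higher in MidK, the ratios were 4.60 for B6 and 2.47 for variant reads. Reads per site moved with this, at 1.35 in MidK and 2.24 in MEF in the lower domains and 3.09 and 2.24 in the higher ones. Since a site with 1 read can only hold a variant read, allele counts summed over sites of unequal depth cannot be compared directly.

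Reads were next summed per gene, over the body and 5 kb on either side, for 1256 RefSeq genes. The median of the 1080 genes tested lay at 0.736 on library totals, so genes are given relative to it. At 2-fold, 104 genes were higher in MidK (9.63%) and 105 lower (9.72%), and on library totals 48 (4.44%) and 230 (21.3%). With each listed site counted once, which leaves fewer counts, 15 of the 104 and 20 of the 105 were also called. Asmt led, with 454 MEF and 1080 MidK reads (14.0-fold, 12.6 to 15.7; 6.72 without sites of more than 20 reads). Cldn34d, a claudin-like gene of a multi-copy family, had 3885 and 3131 (4.75-fold, 4.53 to 4.99). Taf9b, a TFIID subunit gene, had 88 and 70 (4.69-fold, 3.38 to 6.50), and H2bfm, a histone H2B gene, 75 and 63 (4.96-fold, 3.49 to 7.02). Rhox2h, a homeobox gene of the multi-copy Rhox cluster, had 57 and 57 (5.90-fold, 4.01 to 8.67). The noncoding genes Gm14717 (47 and 58 reads) and Gm31556 (38 and 42) were 7.28-fold and 6.52-fold higher. The remaining 3 of the 10 highest were Gm38625 (43 and 41, 5.63-fold), 4930555B12Rik (57 and 49, 5.07-fold) and Gm5947 (32 and 25, 4.61-fold).

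The 10 lowest genes had 0 MidK reads, so only an upper limit of the ratio can be given, from the exact interval. It was 0.293 for Gm14743, with 76 MEF reads, 0.310 for Gm5071, with 72, and 0.319 for Xlr3c, a multi-copy gene, with 70. The other 7 had 39 to 47 MEF reads and limits of 0.482 to 0.585. They include Rhox4b, Rhox2b and Mageb1, which also belong to multi-copy families.

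Of 20 fibroblast and matrix genes tested, 0 were higher and 3 lower, with a median log2 ratio of -0.30 beside 0.01 over all genes. On library totals it was 0 and 5. Beside the 9.72% and 21.3% of all genes called lower, these counts are near the background. Srpx, a secreted sushi-repeat protein gene, had 964 MEF and 74 MidK reads (ratio 0.453, 0.353 to 0.574). Itm2a, a membrane protein gene of mesenchymal differentiation, had 108 and 1 (0.0546, 0.00137 to 0.311). Tmsb4x, which encodes the actin-binding peptide thymosin beta 4, had 82 and 2 (0.144, 0.0171 to 0.537). Gpc3, with 2440 and 271, and Col4a6, a basement membrane collagen gene with 2450 and 344, had the most reads and ratios of 0.655 (0.576 to 0.743) and 0.828 (0.738 to 0.928).

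Among 18 pluripotency and germline genes, 3 were higher and 2 lower, with a median log2 ratio of 0.20, beside 9.63% and 9.72% of all genes. On library totals it was 1 and 4, with a median of -0.24, and Rhox5 and Dusp9 were not called. Trap1a, a tumour antigen gene of the germline, had 72 and 55 reads (4.51-fold, 3.11 to 6.49). Rhox5 had 47 and 18 (2.26-fold, 1.24 to 3.96), and Dusp9, a phosphatase gene of the MAP kinase pathway, 122 and 44 (2.13-fold, 1.47 to 3.03). Most of the body of Rhox5 lies in chrX:37700001-37800000, the window called lower with 45 and 2 reads. The MidK reads of Rhox5 thus came mainly from beyond that window, and the 2 calls run in opposite directions. Nono, a paraspeckle protein gene, had 253 and 21 (0.490, 0.298 to 0.765), and Magea4 123 and 7 (0.336, 0.132 to 0.713). Klf8 and Tex11, with the most MEF reads of the list, had ratios of 1.15 and 1.74. The 12 immune genes had 0 calls, and Btk, a kinase of B cells, and Cybb, the phagocyte oxidase gene, lay at 0.927 and 1.27. Of the neural genes, Dmd and Il1rapl1, those with the most MEF reads, lay at 1.44 and 1.09.

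Of 11 genes of the X-inactivation centre, 0 were higher and 1 lower, with a median log2 ratio of -0.13, a share near the 9.72% of all genes called lower. Jpx, a noncoding RNA that activates Xist, had 221 MEF and 12 MidK reads (0.320, 0.163 to 0.571). Xist itself had 228 and 53 (1.37, 0.997 to 1.86), and Tsix, its antisense repressor, 508 and 102 (1.19, 0.948 to 1.47). Xist and Tsix overlap and share reads. Ftx, another noncoding RNA gene of the centre, had 577 and 111 (1.14, 0.918 to 1.39).

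Of 12 escape genes, 1 was called higher, Mid1, a ubiquitin ligase gene, with 2794 and 1080 reads (2.28-fold, 2.12 to 2.45). On library totals it was not called. Relative to the median gene it turned to a log2 ratio of -0.21 without sites of more than 20 reads. Shroom4, an actin regulator gene, had 1345 and 244 (1.07, 0.930 to 1.23). The histone demethylase genes Kdm5c (399 and 101 reads) and Kdm6a (594 and 86) had ratios of 1.49 (1.19 to 1.86) and 0.854 (0.673 to 1.07). Genes subject to inactivation had 0 higher and 1 lower of 20, with a median log2 ratio of -0.24, beside 9.63% and 9.72% of all genes. On library totals it was 0 and 5, where 21.3% of all genes were lower. The 1 called lower relative to the median gene was Ndufa1, a subunit of respiratory complex I, with 96 and 4 (0.246, 0.0656 to 0.650). Cask and Atrx, with the most MEF reads of that list, had ratios of 0.756 (0.663 to 0.858) and 0.745 (0.614 to 0.897).

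Chromatin regulators had 4 higher and 1 lower of 22 and a median log2 ratio of 0.09, beside 9.63% and 9.72% of all genes. On library totals it was 2 and 3, with a median of -0.35, and Taf1 and Taf7l were not called. Taf1, the largest TFIID subunit, had 473 and 188 reads (2.35-fold, 1.97 to 2.78), and Taf7l 208 and 77 (2.18-fold, 1.66 to 2.85). Usp51, a histone deubiquitinase gene, had 82 and 38 (2.73-fold, 1.81 to 4.06), and the other was Taf9b. Smc1a, a cohesin subunit gene, went from 402 to 16 (0.235, 0.133 to 0.386). Hdac8, a histone deacetylase gene, and Bcor had 1419 and 208 (0.865) and 1105 and 242 (1.29). Bcor was therefore called at its start and not over its body.

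Allele balance was compared at sites with the same number of reads, since depth decides which sites are listed. Sites needed at least 2 reads of each allele and 5 to 20 reads in all, 1 per 300 bp, and the share of sites with a variant majority was weighted to the depths of MidK. Variant reads outnumbered B6 reads at 48.3% of 11551 MEF sites and at 23.3% of 3057 MidK sites, a difference of -25.0 percentage points (SE 0.893, counting error). The mean variant share per site was 49.5% in MEF and 42.4% in MidK. These levels depend on the filter, which leaves out sites with fewer than 2 B6 reads. With at least 1 read of each allele, the variant majority was 59.6% in MEF and 28.2% in MidK. At exactly 5 reads the values were 49.2% and 30.6%, at 6 reads 47.7% and 17.6%, at 8 reads 45.8% and 11.8% and at 10 reads 41.8% and 4.92%. The gap between the libraries widened with depth.

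**Figure D4:**
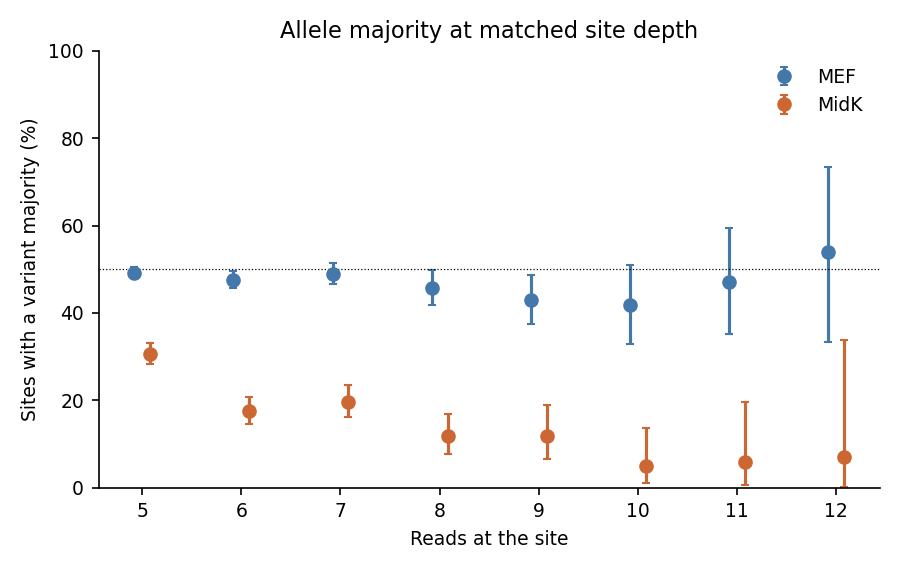
Percent of sites with a variant majority (y axis, ties left out) by reads at the site (x axis), MEF in blue and MidK in orange, with 95% Clopper-Pearson intervals as bars. MEF stays near the dotted line at 50% and MidK falls from 30.6% at 5 reads to 4.92% at 10.

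The gap came with a pile of MidK sites at 2 variant reads, the lowest count that is common at such sites. At exactly 5 reads, 2 variant and 3 B6 reads stood at 58.9% of 2435 MidK sites and at 26.6% of 17057 MEF sites. Sites with 5 variant and 0 B6 reads made up 4.27% and 26.6%. At 8 reads, 2 variant and 6 B6 reads stood at 47.9% of 401 MidK and 15.5% of 1631 MEF sites, while 4 of each stood at 12.0% and 16.4%. MidK sites were thus spread toward few variant reads and not around an even split. Whether reads from other copies or errors of calling add to those sites was not tested.

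The positions themselves differed between the lists, and the gap was smaller at sites listed in both. There the variant majority was 52.3% of 798 MEF and 41.1% of 370 MidK sites (-11.2 points, SE 3.13). The filters were applied to each library separately, so the MEF and MidK sites are not the same positions. At sites listed in 1 of the libraries the values were 47.8% and 21.6%. Where positions were paired, 19673 had at least 1 read in each library, with a mean variant share of 92.9% in MEF and 95.9% in MidK. It was lower in MidK at 1680 and higher at 3357, but a site with a single read always holds a variant read. At the 954 positions with at least 3 reads in each library, the mean variant share was 77.7% in MEF and 68.7% in MidK, lower in MidK at 497 and higher at 283. For the 152 positions with at least 5 reads in each library, the mean variant share was 65.5% in MEF and 61.4% in MidK. It was lower in MidK at 74 of these, higher at 69 and equal at 9. At the 27 positions with at least 8 reads in each, it was 57.7% and 68.0%, the opposite order. At the same positions, the order thus depended on the depth required.

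Along the chromosome, MidK was below MEF in 18 of 18 bins of 10 Mb, and the exact intervals were apart in 17. With at least 8 reads a site they were apart in 10 of 18, and at sites listed in both libraries in 0 of 17. At matched depth the bins ranged from 44.1% to 51.7% in MEF and from 19.5% to 35.0% in MidK. The bin with Xist, chrX:100000001-110000000, had 48.6% and 23.8% (-24.8 points, SE 3.29). The exception was the last bin, from chrX:170000001 on, with 14 MEF and 20 MidK sites at shared depths and a difference of -16.7 points (SE 19.3).

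**Figure D5:**
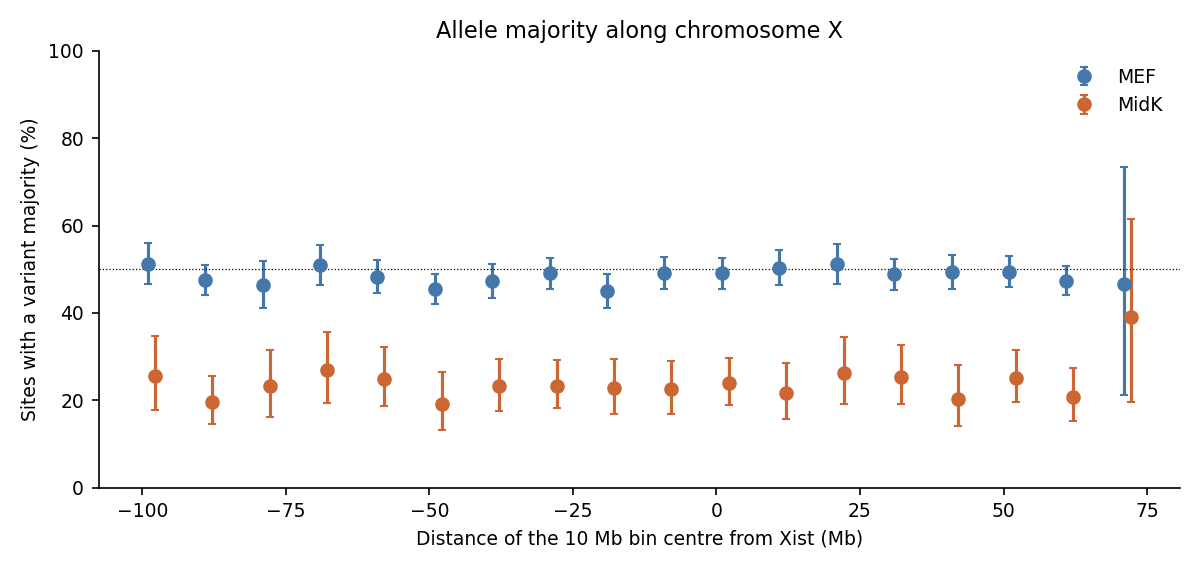
Percent of sites with a variant majority (y axis, ties left out, not weighted by depth) in bins of 10 Mb, by distance of the bin centre from Xist in Mb (x axis), MEF in blue and MidK in orange, with 95% Clopper-Pearson intervals as bars. The intervals of the libraries are apart in 17 of 18 bins, and those of the last bin, with few sites, overlap.

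The order was the same inside and outside the domains and the gene bodies. In the domains lower in MidK the variant majority was 50.6% of 499 MEF and 20% of 30 MidK sites (-30.6 points, SE 8.36), and in those higher 43.0% of 111 and 23.1% of 78 (-19.9, SE 7.01). Inside gene bodies it was 47.5% and 22.9%, and outside 48.7% and 23.4%. CpG-rich promoters, before any depth matching, had 52.8% of 72 MEF sites (40.7% to 64.7%) and 40% of 55 MidK sites (27.0% to 54.1%), intervals that overlap. The other promoters had the opposite order, with 44.0% of 134 MEF sites (35.5% to 52.9%) and 55.6% of 18 MidK sites (30.8% to 78.5%), and these intervals overlap too. In the first 1 kb of the CpG-rich promoters, summed B6 reads gave a ratio of 3.45 (2.98 to 4.01) and variant reads 2.09 (1.91 to 2.28), at sites of unequal depth.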

How the data were processed

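LSD1 reads on chromosome X were taken from the MEF and MidK libraries, with LowK used at promoters only. Per the submitters' processing notes the authors used BWA and the build mm10, and per the labels they called variants with bcftools mpileup. No source used here gives versions, filters or the handling of duplicates. Depth, B6 reads and variant reads of each position are deposited counts, named so in the file headers. The deposited score named reliability was used in 1 alternative. Its column in the MidK list carries another prefix than the other columns of that list. Entries other than single bases (6.98% and 5.56% of the lists) were left out.

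Genes and promoters came from RefSeq (GRCm38.p6). Of the listed genes, Phf16 was not found, and 1 promoter, that of Asmt, was left out of the start-site values for unread bases. A read covering several listed sites is counted at each, so intervals, exact Poisson or Clopper-Pearson at 95%, are too narrow and cover counting error only. No test was run, because each group has 1 library. The text names the 10 highest and lowest genes called, the 5 highest and lowest windows, the 5 longest domains each way, and called list members with the 2 of most MEF reads; beyond this, examples were chosen after their values were seen. Some results that this rule names are not reported here. The comparison, lists and allele measure were chosen with earlier results of these data known. Scripts used Python 3.11.15, pandas 2.3.3, numpy 2.4.6, scipy 1.17.1 and matplotlib 3.10.9 and were tested on simulated data.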

Additional observations from a re-analysis of the deposited data

How the results depend on the processing

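No paired analysis was possible because each group has 1 library, and for the same reason no replicate could be left out. Counts are given as higher, then lower in MidK, in the order 1 Mb windows, 100 kb windows, genes and domains. With each site counted once, 1 Mb windows had 1 lower (none of the 5 reported), 100 kb windows 15 and 17, genes 18 and 22 and domains 2 and 5. With 1 site per 300 bp the values were 2 lower, 28 and 34, 47 and 10, and 1 and 8. A reliability of at least 20 gave 9 lower, 119 and 214, 168 higher genes, and 16 and 41. Sites listed in both libraries gave 2 and 1, 25 and 1, 5 and 2, and 0 and 0. B6 reads only gave 20 lower, 223 and 245, 64 lower genes, and 28 and 39, and variant reads only 2 lower 1 Mb windows and 5 higher domains. Library totals gave 48 and 230 genes and 25 lower domains, and the median 100 kb window 54 and 210 genes. At 2-fold, 1 Mb windows had 9 and 0. At 1.5-fold, 100 kb windows had 192 and 229, and 181 genes were higher. The gene body alone gave 62 lower genes. Runs of at least 2 windows gave 34 and 44 domains, and runs of at least 5 gave 1 and 1. Minimums of 1000 and 100 MEF sites, chosen after seeing the data, gave 3, 28 and 5 higher windows and domains. Leaving out sites of more than 20 reads and using the deposited depth kept each of these counts within 1.5 times.

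The allele difference was -31.4 points with at least 1 read of each allele, -33.6 with at least 8 reads, -19.1 at a reliability of at least 20 and -11.2 at sites listed in both libraries. With at least 8 reads 10 bins had intervals apart, and at sites listed in both 0.

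The 11 promoter alternatives, chosen after seeing the data, kept the CpG-rich ratio above 1: 1.60 with each site counted once, 2.002 and 1.48 with 1 site per 300 bp (all reads, counted once), 4.44 at a reliability of at least 20, 1.71 at sites listed in both, 1.93 at sites with at most 5 reads, 3.45 and 2.09 for B6 and variant reads, and 1.999 without the 10 promoters with the most MidK reads. The ratio of other promoters was 0.613 for B6 reads, 0.995 at sites listed in both, and reversed to 1.21 at a reliability of at least 20. Mid1 reversed to -0.31, -0.21 and -0.47 (log2; sites counted once, without sites of more than 20 reads, gene body alone) and Dusp9 to -0.48 (sites listed in both). The cause was not tested. For the other single results, 293 values stayed within their intervals and 138 moved. Depth limits the single-gene values: MidK had 1.71 reads per site, and many genes rest on fewer than 100 reads.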
